A study of Mus musculus with 5 samples.

Results

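Ionotropic glutamate receptors and GABA-A receptors are the ligand-gated ion channels that carry most fast excitation and inhibition in the brain. Their subunit genes were followed here in libraries of cells selected as astrocytes from the mouse amygdala. The members were the genes of the deposited count table whose symbols name a subunit of AMPA (Gria), kainate (Grik), delta (Grid), NMDA (Grin) or GABA-A (Gabr) receptors. This rule found 37 of 35976 genes, of which 18 encode glutamate receptor subunits and 19 encode GABA-A receptor subunits. The epsilon, pi, delta and theta subunits and the rho subunits, formerly set apart as GABA-C receptors, are included among the GABA-A genes.

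The mice carried a tamoxifen-inducible Cre at the Ccr2 locus and a diphtheria toxin receptor allele (genotype Ccr2::CreERT2/+;DTR/+), a design for removing cells that express the chemokine receptor CCR2, such as monocytes. Mice of both groups received tamoxifen, 18 days of tube restraint, and then fear conditioning and extinction, and the groups differed in receiving saline or diphtheria toxin (DTx). No unstressed group and no group without tamoxifen is among the samples, and the labels used here give no age. Amygdala tissue was digested with papain, and cells were taken on magnetic beads against ACSA-2, an epitope of the astrocyte sodium pump subunit encoded by Atp1b2. RNA sequencing of 5 ng of total RNA per library gave the 2 saline libraries (saline 1 and 2) and the 3 DTx-labelled libraries (5A, 6A and 7A) compared here.

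Astrocytes carry functional receptors for both transmitters. AMPA receptors of glia respond to glutamate released at nearby synapses, and GABA-A receptors of astrocytes pass chloride, often outward and depolarizing because astrocytes hold chloride high. A channel is an assembly of several subunits, so the mix of subunit genes that a cell transcribes sets which channels it can build. GluA2, encoded by Gria2, is known for making AMPA receptors nearly impermeable to calcium, because its messenger RNA is edited at a glutamine codon of the pore loop so that arginine is inserted there.

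The coding sequence around that pore-loop codon is shown for the 4 AMPA receptor genes, because the share of Gria2 among them is a result below and editing of this codon in its RNA is what distinguishes its channels. Each sequence is the coding strand of the main protein-coding transcript of the GENCODE vM21 annotation on GRCm38, with the glutamine codon in capitals and all other bases in lower case.
Gria1 (exon 11, + strand, chr11:57243076-57243114): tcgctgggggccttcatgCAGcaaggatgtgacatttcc
Gria2 (exon 11, - strand, chr3:80706893-80706931): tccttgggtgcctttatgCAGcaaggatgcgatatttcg
Gria3 (exon 11, + strand, chrX:41610247-41610285): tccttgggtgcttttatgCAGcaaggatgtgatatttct
Gria4 (exon 12, - strand, chr9:4464119-4464157): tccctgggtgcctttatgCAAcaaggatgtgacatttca
All 4 genes encode glutamine at this place in the genome, at codon 600 of Gria1, 607 of Gria2, 612 of Gria3 and 608 of Gria4. The codon of Gria4 differs from that of Gria1 by G21A, counted from 1 at the 5′ end of the printed window. The windows of 39 bases differ at 3 bases between Gria2 and Gria3 and at 7 between Gria1 and Gria2. Counts per gene do not read the edited base, so editing itself was not measured.

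Total counts lay between 15961220 and 23720299 per library. Of 15532 genes that passed the low-count filter, 5 differed between the groups at an adjusted p under 0.05 (edgeR's quasi-likelihood test with Benjamini-Hochberg adjustment). All 5 were sex-chromosome genes, Xist, Ddx3y, Eif2s3y, Uty and Kdm5d, so that the state of the sex chromosomes coincided with the treatment label in 5 of 5 libraries and the effects of sex and DTx cannot be told apart in any comparison below. Ccr2 itself did not pass the filter. It had no count in either saline library and 54, 4 and 4 counts in 5A, 6A and 7A, most of them in 5A. The monocyte genes Ly6c2, Plac8, Chil3 and S100a8 had at most 5 counts in any library. All 6 monocyte and border macrophage markers tested had a fitted fold change, DTx over saline, above 1. Each of these was highest in 5A, and 0 passed. Whether CCR2 cells were depleted was not tested. The libraries are therefore called DTx-labelled. All 12 astrocyte markers had counts in every group, with a summed level of 25670 and 26600 CPM (read counts scaled to library size) in the saline pair and 25880 to 29510 CPM in 5A, 6A and 7A. Single markers went either way within this sum, 5 up and 7 down. Gfap was at 290 and 741 CPM in the saline pair and at 1079, 1132 and 1609 CPM in 5A, 6A and 7A. Slc1a3 was at 1671 and 2345 CPM against 4024, 5233 and 2075 CPM. Atp1b2 was at 5476 and 5679 CPM against 4328, 4938 and 4749 CPM. RNA of other cells was also present. The 10 oligodendrocyte markers summed to 59360 and 91300 CPM in the saline pair and to 42350, 43620 and 89110 CPM in 5A, 6A and 7A. In every library this was above the sum of the astrocyte markers. The subunit levels below are those of whole libraries and cannot be assigned to astrocytes alone. The 12 microglia markers, at 107 and 266 CPM in sum in saline 1 and 2, were at 455, 326 and 263 CPM in 5A, 6A and 7A. In such bulk libraries fewer cells of a type and less RNA per cell cannot be told apart.

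A few genes dominated the subunit levels of the libraries. Levels between genes were compared as CPM scaled by trimmed mean of M values (TMM) and divided by the kilobases (kb) of annotated exon of each gene. Gria1, the GluA1 subunit of calcium-permeable and synaptic AMPA receptors, stood at 134 ± 45.5 CPM per kb (SD, n = 5 libraries), or 49.99% of the summed level of all members. Gabrg1, which encodes the gamma-1 subunit found in amygdala and in glia, followed at 38.3 ± 9.89 CPM per kb. Gabrb1, Gabra4 and Grin2c were at 14.8 ± 1.08, 12.4 ± 0.99 and 9.93 ± 3.21 CPM per kb. These 5 genes held 78.04% of the summed level. Over the 5 libraries Gabrb1 ranged from 13.2 to 15.9, Gabra4 from 11.5 to 14.1 and Grin2c from 7.07 to 14.8 CPM per kb, so these neighbours in the order overlapped.

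Gria2, Gria4, Grin3a, Gabra2 and Gabrb2 formed the next tier, between 4.34 and 8.20 CPM per kb. At the other end, Gabra6, Gabrp and Gabrr3 had no count in any library. Gabre, Gabrr1 and Grin2a had at most 5 counts in any library and did not pass the filter. Gabra6 is the cerebellar granule cell subunit, Gabrp and Gabrr3 are mainly known outside the forebrain, and Grin2a encodes the GluN2A subunit of mature neuronal synapses. The remaining 31 members were tested. Dividing by coding length instead of exon length kept Gria1 first at 286 CPM per kb and put Gabrb1 second at 143, before Gabrg1 at 131. The exon length of Gabrb1 is 13.7 kb against a coding length of 1.42 kb, and the sources used here do not give the exon models that the authors counted on.

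**Figure D1:**
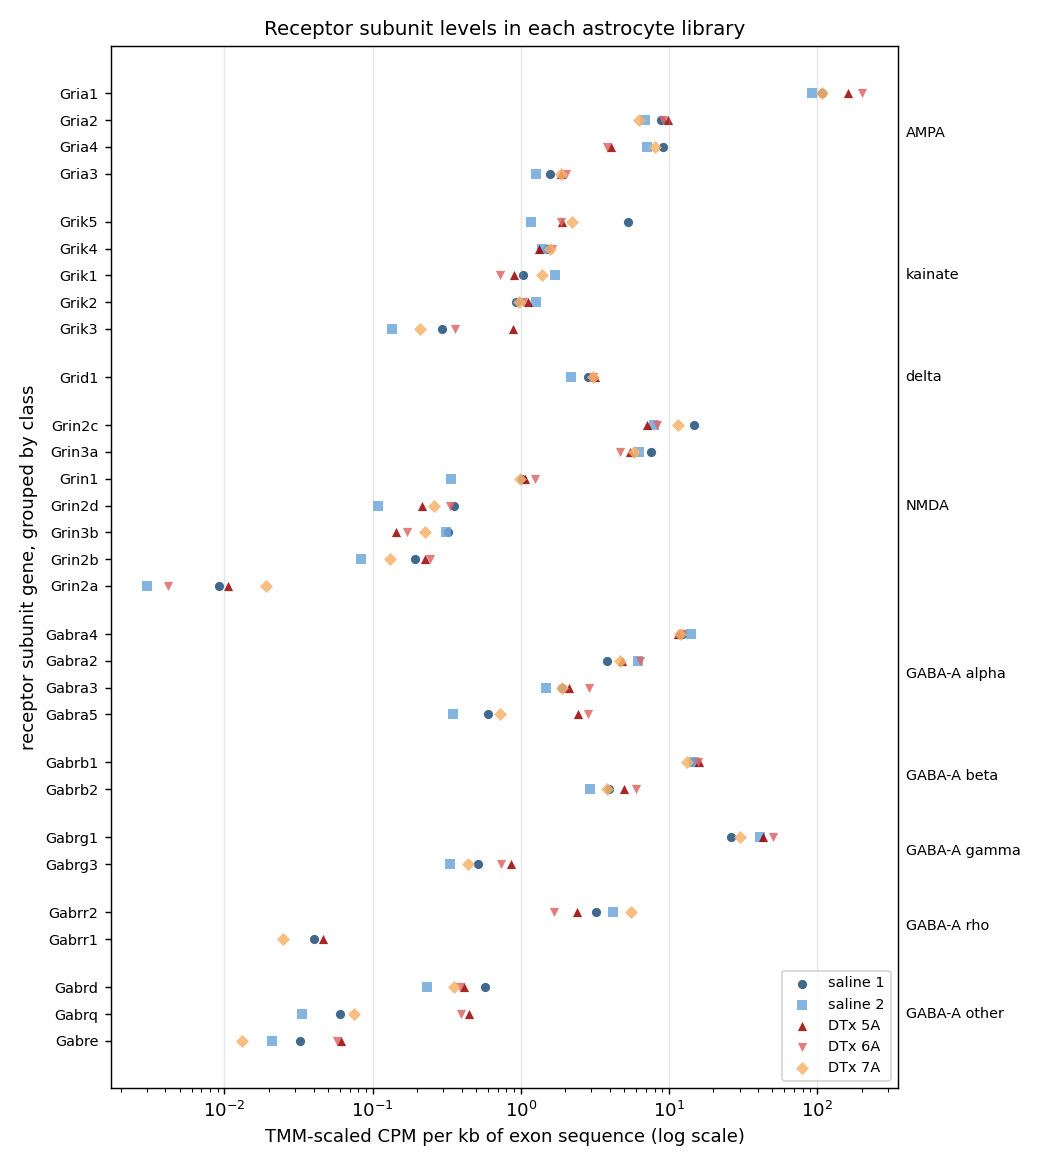
TMM-scaled CPM per kb of exon (log scale, horizontal) of 30 subunit genes with a count, grouped by receptor class (vertical), with 1 symbol for each of the 2 saline and 3 DTx-labelled libraries and values of 0 not drawn. Gria1 has the highest mean drawn, at 134, and Grin2a the lowest, at 0.00921.

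No subunit passed the threshold between the groups. With edgeR's quasi-likelihood test 0 of 31 members passed, where 0.0322% of all genes tested did. At an unadjusted p under 0.05 there were 5 members, or 16.1%, against 6.68% of all genes. Of these, 4 were at higher levels in the DTx-labelled libraries, where 4.49% of all genes had such a p and direction. Gabra5 and Gabrq are among them and are described below. Gabrq passed the low-count filter only through 5A and 6A, where it was high. Its direction, here and in every count below that includes it, is therefore no independent result. Grin3a alone was at a lower level, where 2.19% of all genes were. DESeq2 called 1 member. Limma-voom and edgeR's likelihood ratio test called 0. The count at an unadjusted p under 0.05 was 3 without library 5A, 3 without 6A, 12 without 7A, 9 without saline 1 and 4 without saline 2.

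The fitted fold change, DTx-labelled over saline, was above 1 for 20 of 31 members (64.5%), where 50.4% of all genes tested were above 1. The median log2 fold change was 0.22 over the members and 0.0024 over all genes. The 17 glutamate receptor genes tested had a median of 0.07, with 9 above 0, and the 14 GABA-A genes a median of 0.47, with 11 above 0. Over all 31 members the median was 0.59 without saline 1, 0.12 without saline 2 and 0.0664 without library 6A, so its size rested on single libraries. For 10 of 31 members the groups did not overlap, beside 21.1% of all genes. In 6 of these the DTx-labelled libraries were higher (12.1% of all genes) and in 4 lower (8.99% of all genes).

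**Figure D2:**
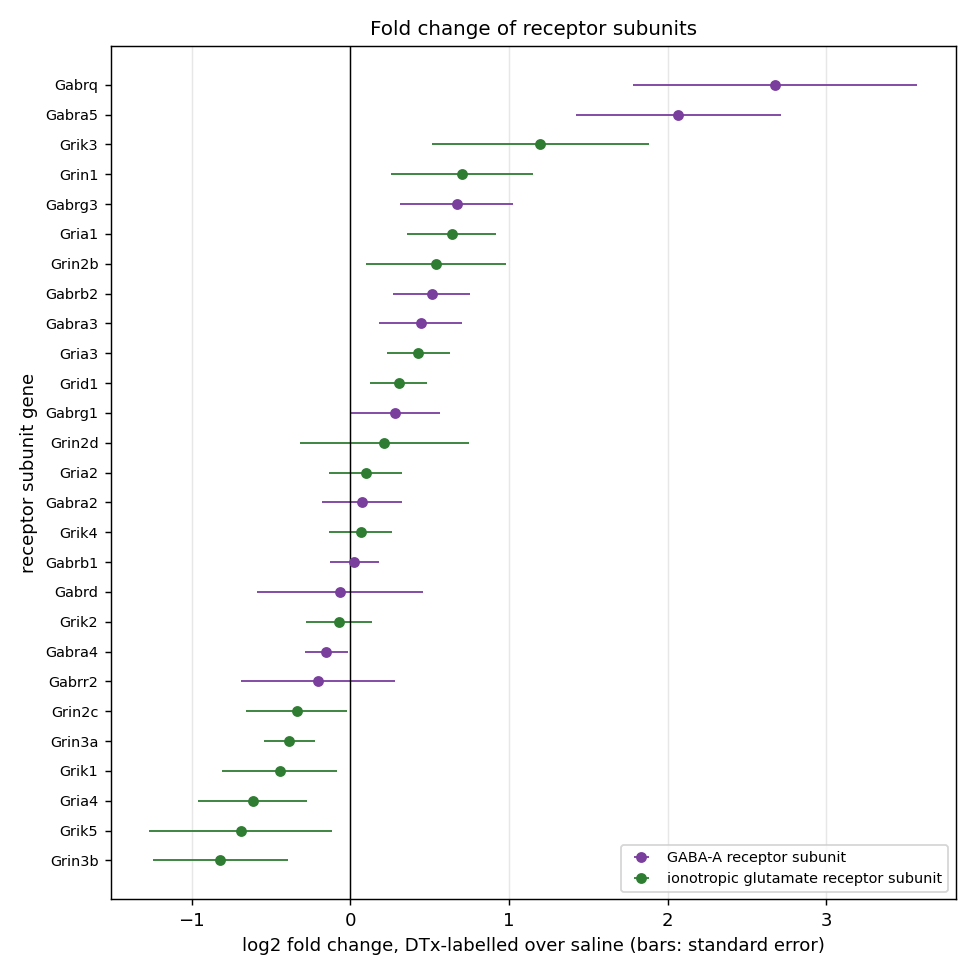
Log2 fold change of 27 of the 31 subunits tested (horizontal, DTx-labelled over saline, bars show the standard error derived from the edgeR F statistic), sorted by size, with GABA-A subunits in purple and glutamate receptor subunits in green. Values run from 2.68 for Gabrq to -0.82 for Grin3b, and none of those drawn passed the threshold after adjustment over all genes.

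Among the DTx-labelled libraries, 5A and 6A were alike and 7A was unlike both. Library 5A lay above both saline libraries for 17 of 31 members and library 6A for 19, whereas library 7A did so for 8 and lay between the saline libraries for 17. Saline 2 held the lowest level of 17 members, and library 6A the highest level of 11. The differences described below are therefore mostly between libraries 5A and 6A and the saline libraries, with 7A often close to saline.

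AMPA receptors form from GluA1 to GluA4 subunits, encoded by Gria1 to Gria4, and give fast responses to glutamate. Gria1 was at 627 CPM in saline 1 and 539 CPM in saline 2, against 933, 1165 and 625 CPM in 5A, 6A and 7A. Libraries 5A and 6A were the highest, and 7A lay inside the saline range, so the groups overlapped. The log2 fold change was 0.64 ± 0.28 (SE) with an edgeR adjusted p of 0.764.

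Gria3, an X-linked subunit gene, was at 8.59 and 6.90 CPM in the saline pair and at 10.1, 11.1 and 10.1 CPM in 5A, 6A and 7A. Here the groups did not overlap, and the log2 fold change was 0.43 ± 0.20 (SE, adjusted p = 0.764). Gria2 was at 92.5 and 72.5 CPM in the saline pair and at 104, 95.5 and 65.7 CPM in 5A, 6A and 7A, with both the highest and the lowest value in that group.

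Gria4 was at 57.7 and 45.1 CPM in the saline pair and at 25.9, 24.1 and 50.8 CPM in 5A, 6A and 7A. Libraries 5A and 6A had about the same low level while 7A stood with saline. Its log2 fold change of -0.61 ± 0.34 (SE) had an adjusted p of 0.773. The 2 libraries low in Gria4 were also the 2 lowest for the summed oligodendrocyte markers given above. The 10 markers of oligodendrocyte precursors, glia that also carry AMPA receptors, summed to 765 and 969 CPM in the saline pair and to 499, 692 and 976 CPM in 5A, 6A and 7A. Most of this sum was Olig1, at 477 and 647 CPM against 333, 481 and 665 CPM. The single markers did not move together, with 4 of 10 above a fold change of 1. Pdgfra was at 30.0 and 47.0 CPM in the saline pair and at 30.8, 45.0 and 50.5 CPM in 5A, 6A and 7A. The part of these cells in the Gria4 levels was not tested.

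The make-up of the AMPA class was computed within each library, as the share of each gene in the summed per-kb level, and does not depend on library scaling. Gria1 held 84.7 and 85.9% in saline and 91.1, 93.1 and 86.97% in 5A, 6A and 7A, so the groups did not overlap. Gria2 held 6.90 and 6.37% in saline and 5.58, 4.21 and 5.05% in the DTx-labelled libraries, all below saline. Shares of a class are not independent, and a larger Gria1 share leaves less for the others. The level of Gria2 itself overlapped between the groups (log2 fold change 0.10 ± 0.23 SE, edgeR adjusted p = 0.935). Gria4 held 7.15 and 6.60% against 2.32, 1.76 and 6.48%. In 5 of 5 libraries, then, GluA1 transcripts far outnumbered those of GluA2, whose codon is shown above. Dividing by coding length raised the mean Gria2 share to 11.6 ± 0.61% (SD, n = 2) in saline and 8.80 ± 1.18% (SD, n = 3) in the DTx-labelled libraries, which kept its order. The exon length of Gria2 is 10.5 kb and its coding length 2.65 kb.

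**Figure D3:**
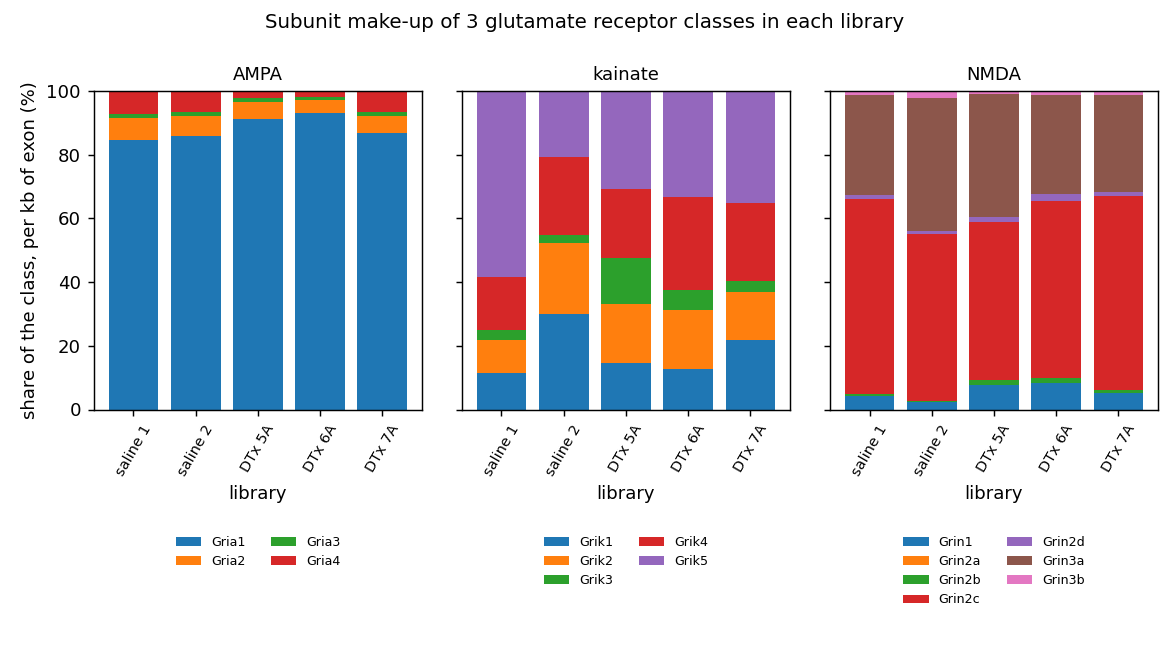
Share of each subunit gene in the summed per-kb level of its class (vertical, percent), with 1 stacked bar per library (2 saline and 3 DTx-labelled) and a panel each for AMPA, kainate and NMDA receptors. Gria1 fills 84.7 to 93.1% of the AMPA bar, Grik5 ranges from 20.6 to 58.5% of the kainate bar, and Grin2c and Grin3a fill most of the NMDA bar.

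NMDA receptors need the GluN1 subunit, encoded by Grin1, together with GluN2 or GluN3 subunits, and GluN2C and GluN3 subunits give channels with weak magnesium block. Of this class the libraries held mostly Grin2c and Grin3a, whose shares of the NMDA class were 49.7 to 61.0% and 30.5 to 41.98% over the 5 libraries. Grin1, although obligatory, held only 4.19 and 2.25% in saline and 7.57, 8.25 and 5.23% in 5A, 6A and 7A, without overlap of the groups. Per kb of coding sequence Grin2c held 49.4% and Grin3a 41.7% in saline 1, while in saline 2 they held 40.6 and 53.7%, so with that length the order of the pair differed between the saline libraries.

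Grin3a was at 56.6 and 47.4 CPM in the saline pair and at 41.1, 35.3 and 43.2 CPM in 5A, 6A and 7A. All 3 DTx-labelled libraries lay below both saline libraries. The log2 fold change was -0.38 ± 0.16 (SE), the smallest p of the class, with an edgeR adjusted p of 0.745. Grin3b, the other GluN3 gene, was scarce, at 23 counts in each saline library and 9, 9 and 13 counts in 5A, 6A and 7A. It was at 1.06 and 1.03 CPM in the saline pair and at 0.476, 0.56 and 0.741 CPM in 5A, 6A and 7A, and its groups did not overlap. The log2 fold change was -0.82 ± 0.43 (SE, adjusted p = 0.769).

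Grin2c was at 74.5 and 39.8 CPM in the saline pair and at 35.6, 41.9 and 58.2 CPM in 5A, 6A and 7A. The saline pair alone spanned nearly the whole range of the group comparison, and the log2 fold change was -0.34 ± 0.32 (SE, adjusted p = 0.829). Grin1 was at 4.43 and 1.48 CPM in the saline pair and at 4.70, 5.41 and 4.33 CPM in 5A, 6A and 7A. Grin2b and Grin2d, the subunits of immature and of interneuron and brainstem receptors, had mean levels between 1.42 and 4.98 CPM in either group. For Grin1, Grin2b and Grin2d alike the lowest of the 5 values was in saline 2.

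Kainate receptors are built from GluK1 to GluK3 subunits, to which GluK4 and GluK5 add high affinity. No kainate gene separated the groups. Grik5 (GluK5) had the highest mean level per kb and was at 19.9 CPM in saline 1, 4.39 CPM in saline 2, and 7.14, 7.03 and 8.37 CPM in 5A, 6A and 7A. Saline 1 stood far above the other 4 libraries. The log2 fold change of Grik5 was -0.69 ± 0.58 (SE, adjusted p = 0.812), and without saline 1 it was 0.77.

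Grik3 had the smallest p of the class, at 2.63 and 1.21 CPM in the saline pair and at 7.93, 3.23 and 1.88 CPM in 5A, 6A and 7A. Its log2 fold change was 1.20 ± 0.68 (SE, edgeR adjusted p = 0.778), and 0.40 without library 5A, which held the highest value. Grik2 and Grik4 had log2 fold changes of -0.07 and 0.07. Grik1 was at 4.39 and 7.17 CPM in the saline pair and at 3.81, 3.05 and 5.87 CPM in 5A, 6A and 7A, with 5A and 6A lowest, as for Gria4. Within the kainate class Grik5 held 58.5% in saline 1, 20.6% in saline 2, and 30.9, 33.2 and 35.0% in 5A, 6A and 7A. Grik3 held 3.25 and 2.39% in saline against 14.4, 6.41 and 3.30%, with 7A barely above saline 1.

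Delta receptors are grouped with glutamate receptors by sequence but work mainly as synapse organisers that bind cerebellins. Grid1 was at 16.3 and 12.5 CPM in the saline pair and at 18.2, 17.7 and 17.5 CPM in 5A, 6A and 7A. All 3 DTx-labelled libraries lay above both saline libraries and close to each other. The log2 fold change was 0.31 ± 0.18 (SE, adjusted p = 0.778).

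GABA-A receptors are pentamers, usually of alpha and beta subunits with a gamma or delta subunit, and the alpha subunit sets much of their kinetics and drug sensitivity. Gabra4, a subunit of slow tonic receptors, led the alpha class. It was at 51.4 and 58.9 CPM in the saline pair and at 48.1, 51.4 and 49.6 CPM in 5A, 6A and 7A. The groups stood just apart, 51.39 CPM in saline 1 against 51.37 CPM in 6A, and the log2 fold change was -0.15 ± 0.13 (SE, adjusted p = 0.818).

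Gabra5, the alpha-5 subunit of extrasynaptic receptors of hippocampal and other forebrain neurons, was at 1.80 and 1.03 CPM in the saline pair and at 7.19, 8.52 and 2.17 CPM in 5A, 6A and 7A. Library 7A was close to saline 1 and far from 5A and 6A. The fold change was 4.19, or a log2 value of 2.07 ± 0.65 (SE, adjusted p = 0.742). Gabra2 and Gabra3 had log2 fold changes of 0.07 and 0.44, and their groups overlapped. Within the alpha class Gabra4 held 60.5 and 60.1% in saline and 48.2, 45.0 and 52.96% in 5A, 6A and 7A, without overlap of the groups, while Gabra5 held 2.98 and 1.48% against 10.1, 10.5 and 3.25%.

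Beta subunits form part of the GABA binding site and are needed for the channel to reach the membrane. Gabrb1 was among the steadiest members, at 199.9 and 202.9 CPM in the saline pair and at 218, 216 and 181 CPM in 5A, 6A and 7A (log2 fold change 0.03 ± 0.15 SE, adjusted p = 0.971). Gabrb2 had the smallest p of the class, at 16.2 and 12.1 CPM in the saline pair and at 20.5, 24.5 and 15.7 CPM in 5A, 6A and 7A. Library 7A lay inside the saline range, and the log2 fold change was 0.51 ± 0.24 (SE, adjusted p = 0.764).

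Gamma subunits place receptors at synapses and, with an alpha subunit, make the benzodiazepine site. Gabrg1 was at 125 and 198 CPM in the saline pair and at 205, 241 and 144 CPM in 5A, 6A and 7A. The saline pair differed from each other by more than the group means did, and the log2 fold change was 0.28 ± 0.28 (SE, adjusted p = 0.836). Gabrg1 held 94.7 to 98.1% of the gamma class over the 5 libraries. Gabrg3 was at 5.77 and 3.72 CPM in the saline pair and at 9.51, 8.21 and 4.90 CPM in 5A, 6A and 7A, and its groups overlapped.

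Of the remaining GABA-A genes, Gabrq encodes the theta subunit, which is restricted to a few neuronal populations that include hypothalamus and amygdala. It had 7 and 4 counts in saline and 45, 34 and 7 counts in 5A, 6A and 7A, or 0.323 and 0.179 CPM against 2.38, 2.12 and 0.399 CPM. The groups did not overlap, but library 7A exceeded saline 1 by less than the saline libraries differed. The fold change of 6.39, a log2 value of 2.68 ± 0.90 (SE), had an adjusted p of 0.742. Without library 5A, or without 6A, Gabrq did not pass the low-count filter and was not tested.

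Gabrd, a subunit of tonic receptors, was scarce at 10 to 24 counts per library. Saline 1 was at 1.108 and saline 2 at 0.448 CPM, against 0.793, 0.746 and 0.684 CPM in 5A, 6A and 7A, all inside the saline range (log2 fold change -0.06 ± 0.52 SE, adjusted p = 0.981). Gabrr2, the rho-2 subunit known from retina, was the 1 rho gene tested. It was at 6.19 and 8.07 CPM in the saline pair and at 4.65, 3.23 and 10.7 CPM in 5A, 6A and 7A, which held both extremes (log2 fold change -0.20 ± 0.48 SE, adjusted p = 0.938). As for Gria4 and Grik1, libraries 5A and 6A were the lowest and 7A was not. These 3 genes were set side by side after their values were seen.

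Most GABA-A genes lie in clusters, and the cluster on chromosome 5 held most of the GABA-A level. Its positions are from the RefSeq table of GRCm38.p6. On chromosome 5, Gabrg1, Gabra2, Gabra4 and Gabrb1 lie between 70751047 and 72149572, and these 4 genes held 79.0 and 85.8% of the summed per-kb level of all GABA-A genes in saline and 78.3, 79.6 and 76.2% in 5A, 6A and 7A. Their log2 fold changes ran from -0.15 to 0.28. Gabra4 and Gabrb1 overlap by 388 bases on opposite strands. Whether counting used the strand is not given, so counts within this short overlap cannot be told apart.

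Members on the X chromosome were Gria3, Gabra3, Gabrq and Gabre. Of these 4 genes 3 were tested and 0 passed, with a median log2 fold change of 0.44. Since Xist and the Y-linked genes separated the same libraries, the number of X chromosomes and the treatment cannot be told apart for these genes.

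Gabra5 and Gabrq are set here beside neuron markers, most of which were also higher in the DTx-labelled libraries. All 18 neuron markers had counts, and they summed to 557 and 461 CPM in the saline pair and to 674, 866 and 648 CPM in 5A, 6A and 7A, without overlap. Of the 18, 16 had a fold change above 1, where 50.4% of all genes tested had, and the median log2 fold change was 0.67. For 7 of the 18 the groups did not overlap, with the DTx-labelled libraries higher, beside 12.1% of all genes. None passed with edgeR, and 6 had an unadjusted p under 0.05, all higher, beside 4.49% of all genes with such a p and direction. Stmn2, a microtubule regulator of neurons, was at 18.3 and 18.5 CPM in the saline pair and at 39.9, 38.8 and 24.6 CPM in 5A, 6A and 7A, while Snap25, a synaptic vesicle fusion protein, was at 121 and 121 CPM against 124, 143 and 147 CPM. The part of neuronal RNA in the levels of Gabra5 and Gabrq was not tested.

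**Figure D4:**
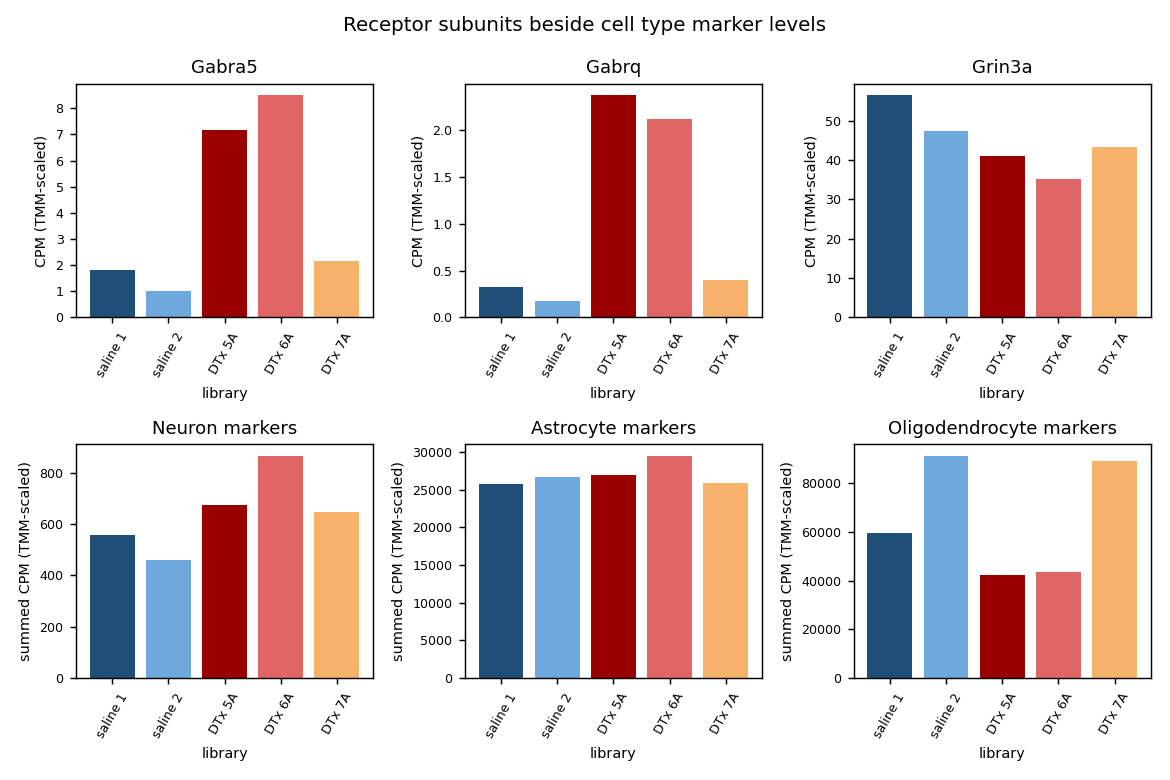
TMM-scaled CPM (vertical, from 0) in each of the 2 saline (blue) and 3 DTx-labelled (red and orange) libraries for Gabra5, Gabrq and Grin3a, and summed CPM of the neuron, astrocyte and oligodendrocyte marker lists. Gabra5 and Gabrq are high in 5A and 6A only, and the neuron marker sum runs from 461 in saline 2 to 866 in 6A.

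Genes of partner proteins gave 0 calls with edgeR, and DESeq2 called 1 of them, the scaffold gene Dlg1. Of 15 auxiliary subunits of AMPA receptors 7 had a fold change above 1, and Cacng2, which encodes the trafficking subunit stargazin, had the smallest p at 15.2 and 11.3 CPM in the saline pair and at 20.9, 23.0 and 20.2 CPM in 5A, 6A and 7A (log2 fold change 0.69 ± 0.19 SE, adjusted p = 0.742). Of 11 partners of kainate and delta receptors tested 8 were above 1. Neto1, an auxiliary subunit of kainate receptors, was at 2.12 and 1.57 CPM in the saline pair and at 3.44, 4.60 and 4.16 CPM in 5A, 6A and 7A (log2 fold change 1.13 ± 0.31 SE, adjusted p = 0.742). For both partners the groups did not overlap.

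Of 11 GABA-A receptor partners 5 were above 1 and 0 had an unadjusted p under 0.05. Of 18 postsynaptic scaffold genes 10 were above 1. Among them Dlg1, a membrane scaffold that binds GluA1, was at 25.8 and 25.7 CPM in the saline pair and at 14.6, 14.6 and 17.7 CPM in 5A, 6A and 7A. Its groups did not overlap, with a log2 fold change of -0.72 ± 0.16 (SE) and an edgeR adjusted p of 0.734. Medians of the log2 fold change over these lists were -0.04 for AMPA auxiliary subunits, 0.28 for kainate and delta partners, -0.02 for GABA-A partners and 0.08 for scaffolds, beside 0.0024 over all genes. Of all genes tested, 50.4% had a fold change above 1 and 6.68% an unadjusted p under 0.05. The groups did not overlap for 21.1%.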

How the data were processed

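The authors deposited raw read counts per gene, in a separate column for each library. The submitters' processing notes name STAR 2.7.5c, featureCounts 2.0.1, fastp 0.23.2, edgeR 3.42.4, MultiQC 1.11 and FastQC 0.11.9, with the builds mm10 and GRCm38. The sources used here do not give the settings, annotation or strandedness of counting, and name no molecular identifiers.

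Saline columns were matched to saline replicates 1 and 2 by the word Ctrl and their number. The numbers of the DTx columns match no label, so these were assigned to the group alone. In all, 1 column, whose name also has the word Ctrl, matched no sample and was left out of every step. The design text gives n = 3 for saline, of which 2 libraries are analysed here. The sample titles end in M1, M2 or M3, but no label says that these are different animals. P-values then measure only the spread between these samples, which may be technical. No pair agreed within sampling noise (chi-square of at least 14.25 per degree of freedom over genes with at least 20 counts). That lowest value was between 5A and 6A. Saline 2 and 7A were next at 17.68, while the saline pair was at 59.97.

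Counts of all genes were scaled by TMM and filtered by filterByExpr (minimum count 10), and edgeR 4.0.16 under R 4.3.3 gave robust quasi-likelihood F tests on bias-adjusted deviances. P-values were adjusted over all 15532 genes tested with a threshold of 0.05. Each SE of a log2 fold change is its absolute value divided by the square root of the edgeR F statistic. The members, lists and the rule for named genes were chosen with earlier results of these data known. By that rule full values are given, in each class, for the member of highest level, the member of smallest p, and members whose groups did not overlap, and lists contribute at most the most abundant member and that of smallest p. Gene lengths come from the GENCODE vM21 basic annotation, which held 37 of 37 members. The test was tested on simulated counts drawn independently for each library. That setting lacks the sex-chromosome difference and the likeness between single libraries seen here, so nothing is drawn from it. Alternatives were scaling by RLE, upper quartile or totals alone, 2 other filters on low counts, DESeq2 1.42.0, limma-voom (limma 3.58.1), the likelihood ratio test, each library left out, and, chosen after seeing the data, legacy deviances and coding length. Values of some genes that the rule would name are not reported here.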

Additional observations from a re-analysis of the deposited data

How the results depend on the processing

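The count of 0 subunits past the threshold held under the 3 other scalings, both other filters, limma-voom, the likelihood ratio test, legacy deviances and each library left out, and was 1 with DESeq2. At an unadjusted p under 0.05 limma-voom gave 3 subunits, and leaving out 1 library gave 3 to 12. Among the related lists DESeq2 called 2 genes (Dlg1 and Ugt8a) and the likelihood ratio test 1 (Ugt8a), and leaving out a library gave 0 to 1. The median log2 fold change of the subunits lay between 0.0664 and 0.59 with a library left out. Direction was kept by 21 of 31 subunits under every alternative in which each was tested. Gabrq is among them but was not tested without 5A or without 6A. As it passed the filter only through these libraries, where it was high, its kept direction is no independent result. Gabrd reversed to 0.0821 with limma-voom. With a library left out the log2 fold change spanned -0.24 to 0.47 for Gabra2, -0.0221 to 0.11 for Gabrb1, -0.57 to 0.72 for Gabrd, -0.0121 to 0.65 for Gabrg1, -0.84 to 0.10 for Gabrr2, -0.0679 to 0.28 for Gria2, -0.28 to 0.17 for Grik2, -1.40 to 0.77 for Grik5, -0.72 to 0.18 for Grin2c and -0.40 to 1.28 for Grin2d. The Gria2 share differed by -1.69 percentage points, DTx-labelled minus saline, by -2.76 from raw counts and by -2.82 per coding length. The Grin2c share differed by -1.36 points and by -5.67 to 2.95 with a library left out. The cause of these shifts was not tested. Where 1 saline library remained, it was assumed to vary like the others. No paired analysis was possible because the DTx columns carry no replicate number of the labels. The number of libraries, and counts of under 50 for Gabrd, Gabrq, Grin2d and Grin3b, limit precision.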

Other observations

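Receptors outside the ionotropic glutamate and GABA-A families gave values of the same kind. Of 9 metabotropic glutamate and GABA-B receptor genes tested 0 passed with edgeR and 2 had an unadjusted p under 0.05. Both were at lower levels in the DTx-labelled libraries, and 2.19% of all genes had such a p and direction. Grm7, a receptor of presynaptic terminals, was at 20.1 and 23.3 CPM in the saline pair and at 12.5, 11.9 and 17.3 CPM in 5A, 6A and 7A, without overlap of the groups. Grm3, a glutamate receptor of astrocytes named here after its values were seen, was at 219.6 and 239 CPM in saline 1 and 2 against 168, 182 and 192 CPM, with a log2 fold change of -0.35 ± 0.14 (SE, edgeR adjusted p = 0.745). Gabbr1, the ligand-binding subunit of the GABA-B receptor, was at 461 and 375 CPM against 401, 439 and 432 CPM. Glrb, the beta subunit of glycine receptors, stood at 276 and 322 CPM in the saline pair and at 176, 193 and 273 CPM in 5A, 6A and 7A (log2 fold change -0.48 ± 0.22 SE, edgeR adjusted p = 0.764). Libraries 5A and 6A were again the lowest, and 7A stood just below saline 1. Of the 3 glycine receptor genes tested, 2 alpha subunit genes had fold changes in the other direction, and the median log2 fold change of the 3 was 0.93. Glra2 had the smallest p of the list, with 17 and 3 counts in saline 1 and 2 against 48, 43 and 11 in 5A, 6A and 7A (log2 fold change 2.08 ± 0.83 SE, edgeR adjusted p = 0.745), so that its groups overlapped. Glra1, also an alpha subunit gene and named after its values were seen, had 18 and 10 counts against 23, 18 and 23, and its groups did not overlap in CPM (log2 fold change 0.93 ± 0.44 SE, edgeR adjusted p = 0.764).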
